A study of Homo sapiens with 4 samples.

Results

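IL6R, the gene for the alpha chain of the interleukin 6 receptor, and 9 genes of the gp130 cytokine pathway were followed across 4 Agilent 1-colour gene expression arrays. The 10 genes were IL6R, IL6ST, IL6, IL11, LIF, LIFR, OSMR, STAT3, SOCS3 and JAK1, taken by their gene name on the array, with every probe of each gene. They held 21 of the 58201 gene probes, and 10 of 43317 gene names. The set was chosen by the measured miR-891b minus NC1 difference of IL6R on these arrays, with the genes around it taken for their place in the pathway, so all values are given as a description with no test.

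The arrays measured total RNA of HCT116, a line of human colorectal cancer cells, and A549, a line of human lung cancer cells. Each line was transfected with the microRNA miR-891b or with NC1, a negative control, by the lipid reagent Dharmafect1. There was 1 array in each of the 4 groups, so no group has a replicate and no test of miR-891b against NC1 exists. The time between transfection and harvest is not given in the sources used here, and both groups of a line share the transfection reagent. The 2 HCT116 arrays lay on one slide and the 2 A549 arrays on another, so cell line and slide cannot be told apart.

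Cytokines of the interleukin 6 family signal through gp130, the receptor chain encoded by IL6ST, which most cell types carry. Interleukin 6 first binds the alpha chain IL6R and interleukin 11 binds its own alpha chain, and these complexes then bring gp130 chains together. Leukaemia inhibitory factor and oncostatin M instead join gp130 with LIFR or OSMR. The kinase JAK1, bound to the receptor, then phosphorylates the transcription factor STAT3, and SOCS3, a target of STAT3, binds gp130 and the kinase and shuts the signal down. IL6R on the cell surface is found mainly on hepatocytes and some leukocytes, while a soluble form, shed by ADAM proteases or made from a spliced transcript, can serve cells that lack it.

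The mature microRNA is shown because it is the only agent that differed between the arrays of a line, with its seed (bases 2 to 8 from the 5′ end) in capitals.
hsa-miR-891b: uGCAACUUaccugagucauuga
The sequence is from RefSeq on GRCh38.p14, at chrX:146001100-146001121 on the minus strand. A stretch that pairs with all of the seed reads AAGTTGC in a target's sense strand. None of the 21 probes of the 10 genes held it, against 229 of all 58201 gene probes (0.393%), each probe being 60 bases long. This says only that the letters are not in these windows, since the rest of the transcripts was not searched.

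The windows of 250 bases before the first base of IL6R and of IL11 are also shown. These were the 2 genes of the set with a difference of 2-fold or more at the probe of highest mean level. A dimmer OSMR probe also passed 2-fold in A549, at a spot with raised local background described below. Both are from RefSeq on GRCh38.p14, IL6R at chr1:154405093-154405342 on the plus strand and IL11 at chr19:55370464-55370713 on the minus strand, and the capitals mark a match to the AP-1 motif.
IL6R: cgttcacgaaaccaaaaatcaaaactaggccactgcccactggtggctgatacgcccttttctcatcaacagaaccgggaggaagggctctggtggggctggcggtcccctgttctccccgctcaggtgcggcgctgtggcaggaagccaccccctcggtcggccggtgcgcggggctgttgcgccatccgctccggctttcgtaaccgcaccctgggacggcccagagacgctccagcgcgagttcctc
IL11: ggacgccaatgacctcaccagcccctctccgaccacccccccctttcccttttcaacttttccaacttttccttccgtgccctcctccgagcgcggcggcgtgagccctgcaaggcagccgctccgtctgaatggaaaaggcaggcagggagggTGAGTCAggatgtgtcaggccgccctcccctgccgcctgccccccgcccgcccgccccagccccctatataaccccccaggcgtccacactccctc
RefSeq entries were found for 9 of the 10 genes, 14 windows in all, and LIF is named only. The AP-1 motif TGANTCA, searched on both strands, was in the IL11 window, from 96 to 90 bases before the start, and in 6.57% of 35116 windows of all genes. The STAT motif TTCNNNGAA was in 6.57% of all windows and in 2 of the 14, both of LIFR, at 165 to 157 and 182 to 174 bases before 2 of its starts. Neither motif was in the IL6R window. A match is a string of letters and not a measured site, and no binding was measured here.

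Signals are given in the scanner's intensity units after Feature Extraction's background subtraction, with ± the error that Feature Extraction itself assigns to the spot. That error describes a spot and not the spread between cultures. A level is the log2 signal minus the log2 of the array's 75th percentile over gene probes, and a difference is miR-891b minus NC1 of such levels. Levels of different probes are not comparable, since each probe binds with its own strength. A probe counted as measured in a line where Feature Extraction marked it well above background on both arrays. Where a gene had several probes, the one of highest mean level over the arrays stood for it. In RNA from whole cultures, fewer cells that express a gene and less of its RNA in each cell cannot be told apart.

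Between 44.7% and 50.3% of gene probes were well above background on an array. Of the 21 probes of the set, 18 were so on each HCT116 array, 19 on the A549 NC1 array and 20 on the A549 miR-891b array. Over all genes, 1.16% of the 19105 measured in HCT116 were at least 2-fold higher with miR-891b and 0.843% at least 2-fold lower. In A549, 4.01% of 21336 were at least 2-fold higher and 5.57% at least 2-fold lower. Over genes, the difference had an SD of 0.38 and of 0.61 in HCT116 and A549, around medians of -0.041 and -0.059. An area of stray signal was one where, among neighbouring spots dim elsewhere, at least 10% passed the background mark. Such areas took 10.5% of spots on the HCT116 miR-891b array and at most 2.19% on the other 3. Summed marker levels of the lines matched the labels. Those of A549 gave 2289 and 1918 times the 75th percentile on the A549 arrays, NC1 first, against 4.51 and 7.61 on the HCT116 arrays. AKR1B10, 1 of these markers, was at -2.29 and 2.18 in HCT116. Those of HCT116 gave 189 and 147 on the HCT116 arrays against 15.7 and 18.3 on the A549 arrays. All 5 were well above background on every array, and CDH1 was alike in both lines (3.25 and 2.46 in HCT116, 3.01 and 2.23 in A549).

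Of the set, 9 genes were measured in HCT116 and all 10 in A549. IL6R was at least 2-fold higher with miR-891b in both lines, and IL11 was at least 2-fold lower in A549. The count in HCT116 was thus 1 higher and 0 lower of 9, and in A549 1 higher and 1 lower of 10. The 1 higher gene in each line was IL6R, by whose difference the set was chosen. The higher counts therefore cannot be set against the shares of all genes above. Among the others the difference farthest from 0 was 0.67 in size in HCT116 (STAT3) and 0.93 in A549 (OSMR, at 1 of its 2 probes, whose signs were opposite). The median difference of the measured genes was -0.19 in HCT116, with 3 above 0 and 6 below, and -0.016 in A549, with 5 above and 5 below. Without OSMR the A549 median was 0.044, with 5 above and 4 below, and with the mean over each gene's probes it was 0.073, with 7 above and 3 below, so its sign is not settled.

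**Figure D1:**
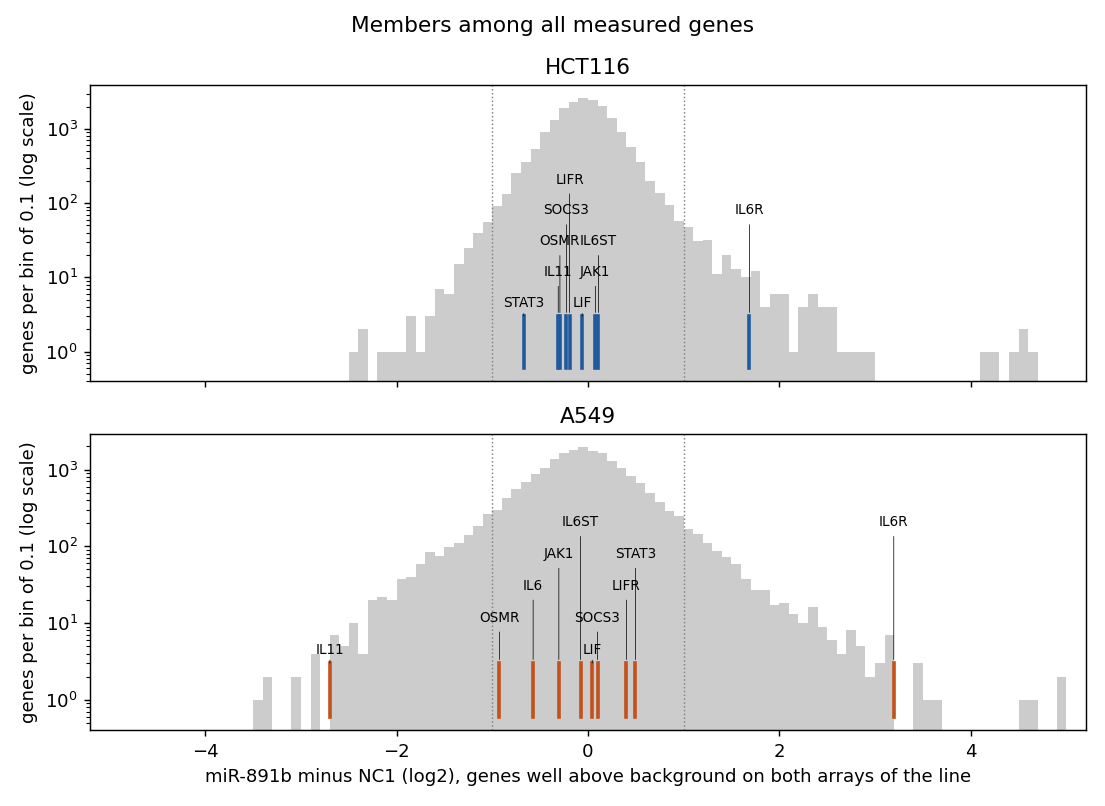
Histogram of the miR-891b minus NC1 difference (log2) over all genes well above background on both arrays of a line, with the number of genes per bin of 0.1 on a log axis, HCT116 above and A549 below. The coloured ticks mark the genes of the set and the dotted lines 2-fold. IL6R lies in the right tail in both lines at 1.69 and 3.20, and IL11 lies in the left tail in A549 at -2.70.

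IL6R transcripts were low on both control arrays and higher on both miR-891b arrays. The probe A_33_P3288844 (chr1:154440037-154440096, hg19), designed to transcript variant 1, gave 7.74 ± 1.38 on the HCT116 NC1 array, 25.9 ± 3.01 on the HCT116 miR-891b array, 7.93 ± 1.37 on the A549 NC1 array and 72.1 ± 7.29 on the A549 miR-891b array. The 2 control arrays were alike and dim, both miR-891b arrays were brighter, and the A549 miR-891b array was the brightest. It was well above background on all 4.

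On the level scale the IL6R difference was 1.69 ± 0.31 in HCT116, or 3.22-fold, and 3.20 ± 0.29 in A549, or 9.16-fold. It was number 60 from the highest of 19105 genes in HCT116 and number 10 of 21336 in A549. The A549 difference was larger than the HCT116 difference by 1.51 ± 0.42, where the error covers the spots only. Being at least 2-fold higher in both lines was shared by 29 of the 18064 genes measured in both. The control signals lay close to background, and another background correction (normexp with an offset of 50, then quantile normalization) ended the 2-fold call in both lines, with differences of 0.35 and 0.93.

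The local background around this IL6R spot was 16 to 18 on all 4 arrays, and at most 4.32% of nearby dim spots were well above background, so it lay in no area of stray signal. Probes with at least 5 spots on the array give the spread between spots of one probe. Their SD of the difference had a median of 0.13 over the 8 probes of mean signal under 50 in HCT116, and of 0.22 over 11 such probes in A549. The highest such SDs were 0.26 and 0.35. They describe spots of one array pair and leave out the spread between cultures, so they are no test of the IL6R values.

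The second IL6R probe, A_21_P0000171 (chr1:154407568-154407627, hg19), was designed to transcript variant 3, and the labels do not say what that variant encodes. Its signals were 3.06 ± 1.27 and 3.90 ± 1.70 on the HCT116 NC1 and miR-891b arrays, and 4.30 ± 1.31 and 21.1 ± 2.43 on the A549 NC1 and miR-891b arrays. Only the A549 miR-891b array was well above background. Against the lowest signal that was well above background on the A549 NC1 array, the transcript was at least 4.41-fold higher with miR-891b. In HCT116 neither array gave a level for it.

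IL6ST, the shared gp130 chain, had 7 probes, all well above background on all 4 arrays. Its representative probe A_33_P3233841 (chr5:55238513-55238572, hg19) gave 113 ± 11.4 and 127 ± 12.8 on the HCT116 NC1 and miR-891b arrays, and 1088 ± 109 and 1024 ± 102 on the A549 NC1 and miR-891b arrays. Both A549 arrays were far above both HCT116 arrays, and the arrays of a line were close to each other. The difference with miR-891b was 0.11 ± 0.21 in HCT116 and -0.08 ± 0.20 in A549, both within the spots' own error. On the A549 miR-891b array the spot lay in an area of stray signal (11.3%).

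Over the 7 IL6ST probes the difference with miR-891b ran from -0.38 to 0.50 in HCT116, with a median of -0.16, and from -0.14 to 0.36 in A549, with a median of -0.036. No probe passed 2-fold in either line. The probe highest in HCT116, A_32_P223777, was in such a stray area on the array of HCT116 with miR-891b (31.0% of nearby dim spots) and had a background outlier mark on both HCT116 arrays. The probe highest in A549, A_32_P45168, has only 15 bases placed on chromosome 5 in the array file, and its entry also lists a transcript of MEIS3P1, a pseudogene on chromosome 17.

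**Figure D2:**
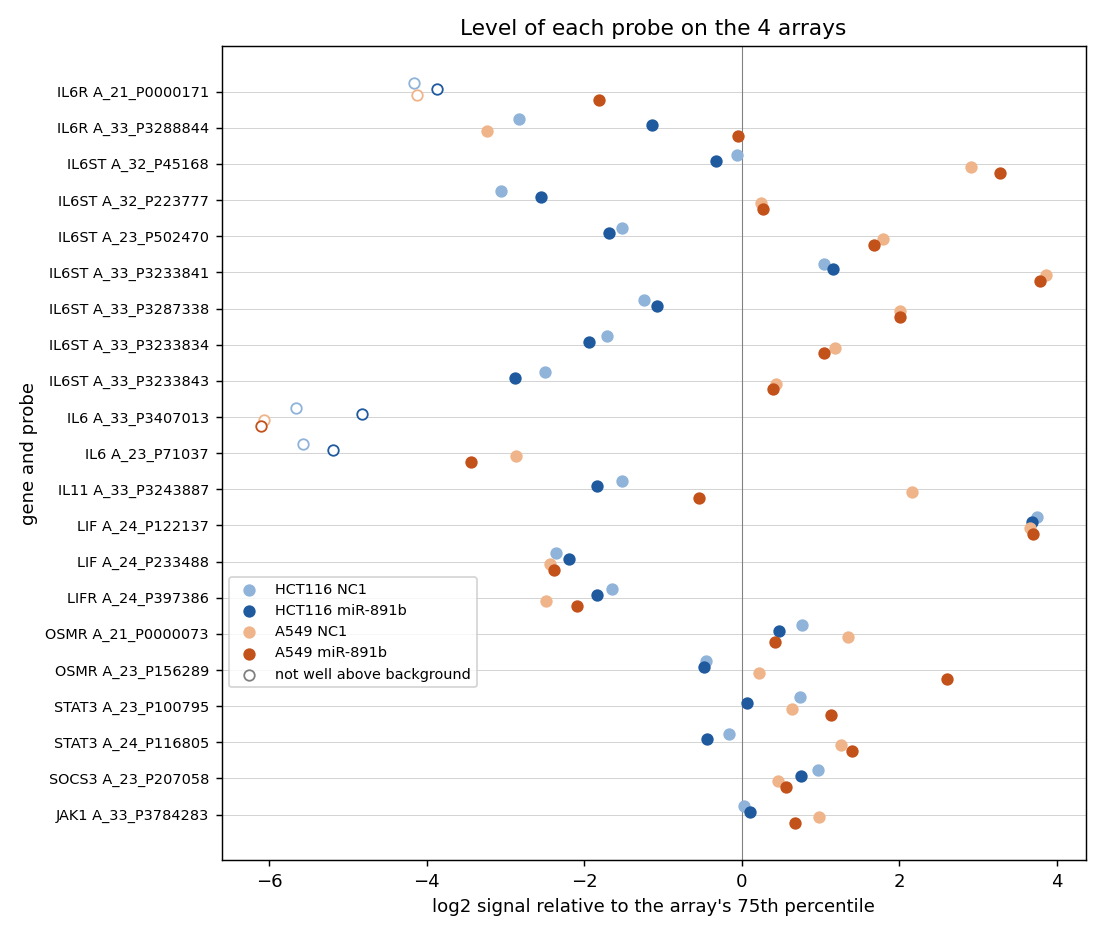
Level (log2 signal relative to the array's 75th percentile) of each of the 21 probes on the 4 arrays, blue for HCT116 and orange for A549, pale for NC1 and dark for miR-891b, with open circles where a probe was not well above background. The pale and dark points of the IL6R probe A_33_P3288844 lie apart in both lines. For each of the 7 IL6ST probes the blue and orange points lie far apart, and the points of a line lie near each other.

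Between the lines, IL6ST was higher in A549 by 7.04-fold to 9.99-fold over the 7 probes on the NC1 arrays (median difference 2.97) and by 6.19-fold to 12.1-fold on the miR-891b arrays (median 3.08). On the NC1 arrays 2 of the 9 measured genes of the set, IL6ST and IL11, were 2-fold or more above HCT116 in A549 and 0 were as far below, against 11.1% and 16.2% of 19218 genes. On the miR-891b arrays 4 of 9 were at least 2-fold higher, namely IL6R, IL6ST, IL11 and STAT3, and none lower. The shares over 18576 genes were 11.4% and 20.7%. IL6R counts here through miR-891b values that also entered the choice of the set. This higher count therefore cannot be set against the share of all genes. For IL6R, A549 minus HCT116 was -0.41 ± 0.36 on the NC1 arrays, while on the miR-891b arrays A549 was 2.14-fold higher.

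**Figure D3:**
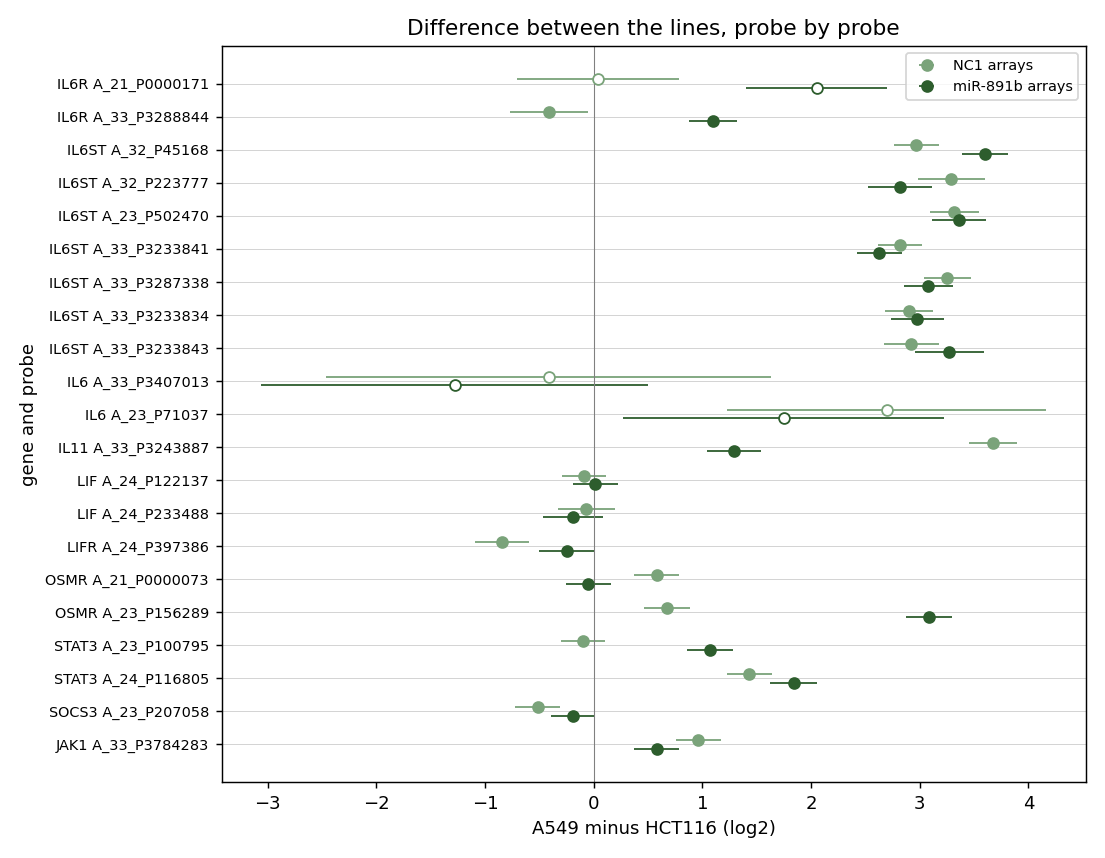
Difference between the lines (A549 minus HCT116, log2) for each of the 21 probes, pale green on the NC1 arrays and dark green on the miR-891b arrays, with bars for Feature Extraction's error and open circles where a probe was not well above background on both arrays. All 7 IL6ST probes lie between 2.63 and 3.60 on both pairs of arrays. IL11 lies at 3.68 on the NC1 arrays and at 1.29 on the miR-891b arrays, and the IL6R probe of variant 1 lies below 0 on the NC1 arrays and above 0 on the miR-891b arrays.

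Of the ligands, IL11 gave the largest difference in A549. Interleukin 11 is a secreted cytokine that signals through its own alpha chain and gp130, and is known for its part in bone turnover and fibrosis. The probe A_33_P3243887 (chr19:55875788-55875847, hg19) gave 19.1 ± 2.24 and 16.0 ± 2.23 on the HCT116 NC1 and miR-891b arrays, and 333 ± 33.4 and 51.0 ± 5.23 on the A549 NC1 and miR-891b arrays. The A549 control array stood above the other 3, and the A549 miR-891b array stood between it and the HCT116 arrays.

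The IL11 difference with miR-891b was -2.70 ± 0.21 in A549, which is 6.49-fold lower and number 10 from the lowest of 21336 genes. Under the normexp correction with an offset of 50 it was -1.78. In HCT116 it was -0.31 ± 0.26. The A549 difference minus the HCT116 difference was -2.39 ± 0.33, with an error for the spots only. On the NC1 arrays IL11 was 12.8-fold higher in A549 than in HCT116, and on the miR-891b arrays 2.44-fold higher. The spot lay in no area of stray signal, and its local background was 15 to 16 on the 4 arrays.

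IL6, the cytokine that gives the family its name, was not well above background in HCT116 on either array. In A549 its probe A_23_P71037 (chr7:22771207-22771266, hg19) gave 10.3 ± 1.53 with NC1 and 6.84 ± 1.32 with miR-891b, a difference of -0.57 ± 0.35. On the NC1 arrays IL6 was at least 1.60-fold higher in A549 than in HCT116. The second IL6 probe, A_33_P3407013, drawn from a predicted transcript, was dim on all 4 arrays.

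LIF, which holds mouse embryonic stem cells undifferentiated and acts on bone and muscle, was close to equal on all 4 arrays relative to the 75th percentile. The probe A_24_P122137 (chr22:30636713-30636772, hg19) gave 735 ± 73.5 and 732 ± 73.2 in HCT116, and 942 ± 94.2 and 964 ± 96.4 in A549, with NC1 first in each. The differences with miR-891b were -0.06 ± 0.20 and 0.04 ± 0.20. The second LIF probe, A_24_P233488, gave 0.17 ± 0.28 and 0.05 ± 0.25.

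The receptor chains LIFR and OSMR pair with gp130 to bind LIF and oncostatin M. LIFR (A_24_P397386, chr5:38475942-38476001, hg19) gave 17.6 ± 2.03 and 16.0 ± 2.10 in HCT116 and 13.3 ± 1.68 and 17.5 ± 2.02 in A549, NC1 first. The A549 control array was the dimmest of the 4. Relative to the 75th percentile, A549 minus HCT116 was -0.84 ± 0.25 on the NC1 arrays and -0.25 ± 0.25 on the miR-891b arrays. The difference with miR-891b was -0.19 ± 0.25 in HCT116 and 0.40 ± 0.25 in A549.

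The 2 OSMR probes gave opposite differences in A549. The probe A_21_P0000073 (chr5:38886589-38886648, hg19), designed to transcript variant 2, gave 93.5 ± 9.44 and 79.3 ± 8.10 in HCT116 and 190 ± 19.1 and 99.6 ± 10.0 in A549, NC1 first. Only the A549 control array stood out, and the difference with miR-891b was -0.29 ± 0.21 in HCT116 and -0.93 ± 0.21 in A549, short of 2-fold. The probe A_23_P156289 (chr5:38933387-38933446, hg19), designed to variant 1, gave 40.0 ± 4.19 and 40.7 ± 4.43 in HCT116 and 87.0 ± 8.80 and 449 ± 45.0 in A549, with differences of -0.03 ± 0.22 and 2.38 ± 0.21.

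The surroundings of that second OSMR spot on the A549 miR-891b array were not like those of the other spots. Its local background was 158 there, against 15 to 17 on the other 3 arrays and a median of 15 over the array, and Feature Extraction marked it as a background outlier. Of 427 spots within 10 rows and columns, 88 had a local background above 50, of 89 such spots on the whole array, and none had one on the other 3 arrays. The mean signal minus the local background gave an A549 difference of 1.52 in place of 2.38. The part of this raised background in the higher OSMR signal was not tested, and no direction for OSMR in A549 is taken from the 2 probes together.

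**Figure D4:**
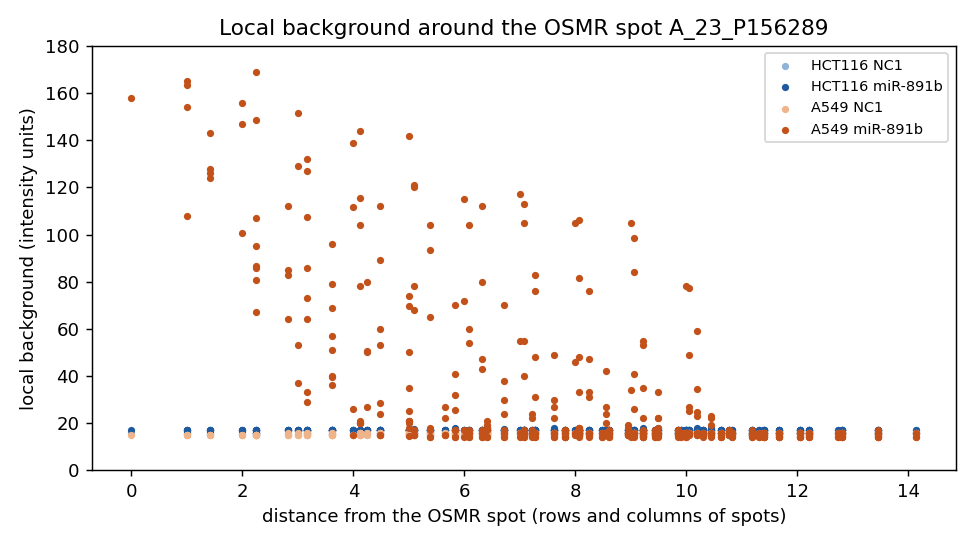
Local background (intensity units) of the spots within 10 rows and columns of the OSMR spot A_23_P156289, against their distance from it in rows and columns, on the 4 arrays. On the A549 miR-891b array it is 158 at the OSMR spot and reaches 169 nearby, and on the other 3 arrays it stays at 20 or less.

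Inside the cell, JAK1 is the main kinase of gp130 signalling. Its probe (A_33_P3784283, chr1:65299773-65299832, hg19) gave 55.8 ± 5.70 and 61.1 ± 6.30 in HCT116 and 148 ± 14.8 and 119 ± 11.9 in A549, NC1 first. The A549 arrays were the brighter pair, and the differences with miR-891b were 0.08 ± 0.21 and -0.30 ± 0.20.

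STAT3, the transcription factor at the end of the pathway, was lower with miR-891b in HCT116 and higher in A549 at both of its probes, with every value under 2-fold. The probe A_23_P100795 (chr17:40465923-40465982, hg19) gave 91.6 ± 9.24 and 59.7 ± 6.19 in HCT116 and 117 ± 11.7 and 163 ± 16.4 in A549, NC1 first, with differences of -0.67 ± 0.21 and 0.50 ± 0.20. The probe A_24_P116805 (chr17:40474404-40474463, hg19) gave 48.9, 41.8, 180 and 195 in that order, with differences of -0.28 ± 0.22 and 0.13 ± 0.20. The signs agreed and the sizes did not. On the NC1 arrays the 2 probes placed A549 against HCT116 at -0.10 and 1.43, so the order of the lines for STAT3 depends on the probe.

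SOCS3, the feedback inhibitor that STAT3 induces, was nearly level. Its probe (A_23_P207058, chr17:76353127-76353186, hg19) gave 108 ± 10.8 and 95.7 ± 9.70 in HCT116 and 103 ± 10.3 and 109 ± 11.0 in A549, NC1 first. The differences with miR-891b were -0.22 ± 0.21 and 0.10 ± 0.21, both close to or within the spots' own error. In A549 the SOCS3 transcripts differed by 1.07-fold. The activity of the pathway was not measured here.

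**Figure D5:**
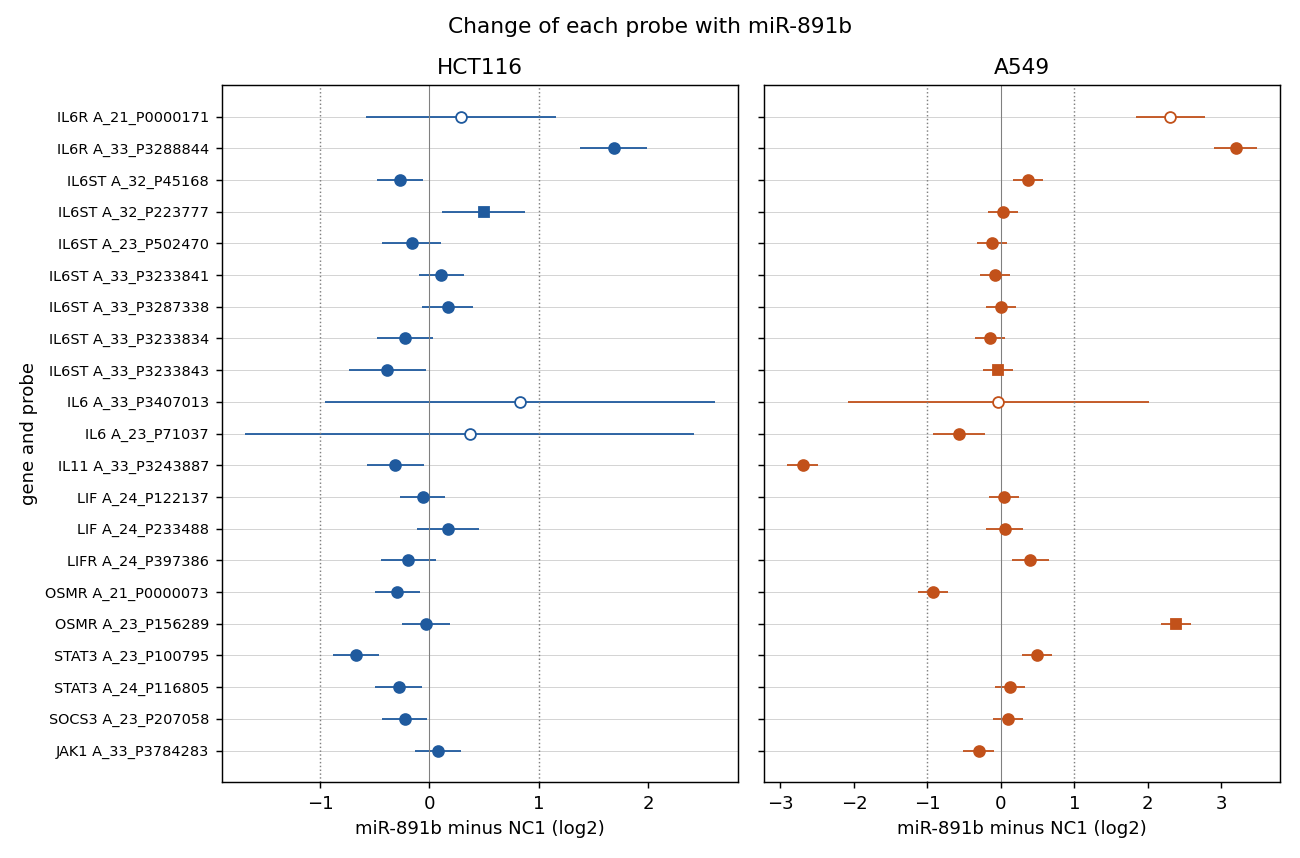
Difference with miR-891b (miR-891b minus NC1, log2) of each of the 21 probes in HCT116 on the left and A549 on the right, with bars for Feature Extraction's error. Open circles mark probes not well above background on both arrays of the line, squares mark probes with a background outlier mark on either array, and dotted lines mark 2-fold. The IL6R probe of variant 1 lies right of 2-fold in both lines. That of variant 3 is an open circle in both, at 0.29 in HCT116 and 2.31 in A549. IL11 lies left of 2-fold in A549 at -2.70, and the 2 OSMR probes lie on opposite sides of 0 in A549.

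Around these 10 genes, 98 further names in 8 lists gave the rest of the pathway, and 97 of them were on the array, the other being IL8, an old name of the listed CXCL8. The medians of 6 of the 8 lists in A549, and of 1 in HCT116, took both signs over 10 other settings. In HCT116, 67 were measured and none was at least 2-fold higher or lower, against shares of 1.16% and 0.843% over all genes. Of the 67, 23 lay above 0 and 44 below, with a median of -0.11 against -0.041 over all genes. In A549, 77 were measured, with 5 at least 2-fold higher, 6 at least 2-fold lower and a median of -0.011, against -0.059 over all genes and the shares of 4.01% and 5.57%. The normexp correction with an offset of 50 left 1 higher and 2 lower.

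Of 9 other ligands of the family, 5 were measured in HCT116 and 3 in A549, and none passed 2-fold (medians -0.23 and 0.18). OSM, which codes for oncostatin M, was not well above background on the HCT116 NC1 array and gave a signal of 19.2 with miR-891b, at least 3.94-fold higher, but its spot lay in an area of stray signal there (14.6%), and a second OSM probe was not measured in either line. Of 5 other receptor chains, IL11RA and IL27RA were measured in both lines. IL11RA, the alpha chain for interleukin 11, differed by -0.32 in HCT116 and 0.44 in A549, and IL27RA by -0.01 and 0.90.

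None of the other JAK kinases and STAT factors passed 2-fold, with 8 of 9 measured in HCT116 (median -0.19) and 9 of 9 in A549 (median 0.054). TYK2, a kinase that also binds gp130, differed by -0.74 in HCT116 and -0.73 in A549. Of the 6 genes of receptor shedding and trafficking, all were measured in both lines and none passed 2-fold (medians -0.055 and 0.37). ADAM17, the protease that sheds IL6R on stimulation, differed by -0.28 and 0.37, and ADAM10, which sheds it at rest, by -0.04 and -0.01.

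Of 18 inhibitors and adaptors, 17 were measured in each line, with medians of 0.10 and -0.091. SOCS1, a feedback inhibitor of JAK kinases, gave 116 and 110 in HCT116 and 14.7 and 33.1 in A549, NC1 first, a difference of -0.12 in HCT116 and of 1.19 in A549. No other gene of this list passed 2-fold in A549, in either direction, against 4.01% higher and 5.57% lower over all genes.

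Among 20 genes known as STAT3 targets, 19 were measured in HCT116, none past 2-fold, with a median of -0.17. In A549 20 were measured, with a median of -0.086. There 1 was at least 2-fold higher and 3 at least 2-fold lower, against 4.01% and 5.57% of all genes. ICAM1, an adhesion molecule, gave signals of 6.07 and 31.0 in A549, NC1 first, a difference of 2.36. Over its 8 spots kept on both arrays the mean was 2.24 with an SD of 0.42. CCND1 (cyclin D1) differed by -1.61 and BIRC5 (survivin, which acts in mitosis and against cell death) by -1.49, with SDs of 0.076 over 9 spots and 0.034 over 10. FOS, an immediate early gene, differed by -1.20. The members past 2-fold thus lay on both sides of 0. LRG1 in HCT116 was at least 2.88-fold lower with miR-891b, where it was not well above background.

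Acute phase genes are secreted proteins that interleukin 6 induces in liver, and A549 cells make several of them. In HCT116, 6 of 16 were measured, none past 2-fold and all below 0 (median -0.50). In A549, 11 were measured, with a median of 0.024. SERPINA1, HP and SERPINA3 were at least 2-fold lower there, at -1.34, -1.29 and -1.27, and FGB, a fibrinogen chain, was higher, at 1.08. The HP signals were 14.2 with NC1 and 5.76 with miR-891b. The latter, a level of -3.69, lay close to the lowest that passed the background mark on that array, -3.93. The shares over all genes in A549 were 5.57% lower and 4.01% higher. Other SERPINA3 probes in A549 gave -0.44 and -1.48, and a second SERPINA1 probe was not well above background.

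Of 14 cytokine and feedback genes of NF-kB (15 names, since IL8 is the old name of CXCL8), the other main route to IL6 transcription, 4 were measured in HCT116 (median 0.24, none past 2-fold) and 9 in A549 (median 0.38). IL1B, a cytokine that induces IL6, gave 9.89 and 32.0 in A549, NC1 first, a difference of 1.70, and NFKBIZ, a nuclear partner of NF-kB, differed by 1.04. TNFAIP3, the chemokine gene CCL2 and NFKBIA also lay above 0, at 0.80, 0.60 and 0.38. The chemokine genes CXCL2, CXCL3, CXCL1 and CXCL8 lay on the other side of 0, at -0.93, -0.88, -0.83 and -0.24. Of the 9, 2 were at least 2-fold higher and none was as far lower, against 4.01% and 5.57% of all genes. Over 10 other settings the A549 median of this list ran from -0.24 to 0.60, so it has no settled direction.

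IL6R is also made by leukocytes and hepatocytes, so the markers of those cells were set beside it. Of 6 leukocyte markers on the array, 4 were well above background on each HCT116 array, 4 on the A549 NC1 array and 3 on the A549 miR-891b array, and CD3E was dim on all 4. Their summed level was 0.909 and 0.887 times the 75th percentile in HCT116 and 3.49 and 2.79 in A549, NC1 first, so it was lower on both miR-891b arrays. Of 4 hepatocyte markers, 1 was well above background in HCT116 and 3 in A549, and APOB was dim on all 4 arrays. Their summed level was 0.362 and 0.286 in HCT116 and 1.57 and 6.81 in A549. In A549 TTR (0.22 and 2.55) and ALB (-2.45 and -0.28) had the higher levels with miR-891b, and APOA1 (-2.33 and -3.37) the lower.

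Fibroblast markers were included because fibroblast lines appear in the growth protocol. Of 8, 2 were well above background on each HCT116 array, 4 on the A549 NC1 array and 5 on the A549 miR-891b array, with summed levels of 2.66, 2.21, 4.29 and 10.6. COL1A2, COL3A1 and DCN were dim on all 4 arrays, and in A549 LUM had the higher level with miR-891b, 3.17 against 1.03 with NC1. THY1 (-1.47 and -2.51), COL1A1 (0.60 and 0.01) and PDGFRB (-1.85 and -1.89) were lower there, NC1 first. The part of the hepatocyte and fibroblast markers' higher sums on the A549 miR-891b array in the IL6R result was not tested.

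By the shape of their 4 levels around their own mean, the named genes closest to IL6R, of 13325 measured on all 4 arrays, were ECM1, GADD45G, IFI44, SLC5A11 and EOMES. The measure was the Euclidean distance over the 4 arrays, from 0.678 for ECM1 to 1.01 for EOMES. ECM1, an extracellular matrix protein, differed by 1.90 in HCT116 and 2.32 in A549, and IFI44, an interferon-induced gene, by 0.80 and 2.81. GADD45G differed by 1.19 and 2.34, SLC5A11 by 2.03 and 2.26 and EOMES by 1.22 and 2.30, and the spots of these 3 lay in areas of stray signal on at least 1 array. With 4 arrays and the order of 4 values to match, such a likeness is a description only.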

How the data were processed

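Total RNA (100 ng) of 4 samples was labelled with Cy3 and put on Agilent arrays, per the labels. Per the file headers, Feature Extraction 11.5.1.1 gave the deposited intensity values, background-subtracted and spatially detrended within each array and not scaled between arrays, with probe coordinates on hg19. The authors' deposited table of log2 values was checked against the scanner values scaled as below. Its median absolute deviation from them was at most 0.0069 on any array, so scale, centring and direction are those used here; its making is not given in the sources used here.

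Spots with a feature outlier mark were left out, spots of a probe were averaged on the log2 scale, and the array's 75th percentile over gene probes was subtracted. A difference of at least 2-fold, with both arrays well above background, was called. With 1 array per group no test was made, so no p-value is given, and precision is limited by their number. A lower bound ("at least N-fold") sets the bright array against the dim probe's own signal or, where higher, the weakest signal that passed the background mark on that array. The script for counts and differences was tested on simulated data. Levels with miR-891b were compared with NC1 in each line and A549 with HCT116. The 12 alternative settings covered scaling, background correction, probe choice, dim probes, stray areas and the fold threshold. Named genes were all probes of the 10 genes, list genes past 2-fold (at most 6 per list and line) or with a bound of 2-fold or more (at most 3), and the 5 genes most like IL6R. Outside this rule, values are also given for IL11RA, IL27RA, TYK2, ADAM17, ADAM10, NF-kB list genes under 2-fold in A549 and cell type markers. The genes and lists were chosen with earlier results of these data known. All 10 symbols are current in the RefSeq table (GRCh38.p14). IL8, a listed name, is the old name of CXCL8, which is listed too. R 4.3.3, limma 3.58.1, Python 3.11.15, numpy 2.4.6, pandas 2.3.3 and matplotlib 3.10.9 were used.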

Additional observations from a re-analysis of the deposited data

Results flagged for a closer look

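STAT3 at its representative probe A_23_P100795 was lower with miR-891b in HCT116 (-0.67) and higher in A549 (0.50), so the A549 difference minus the HCT116 difference was 1.17. It was singled out for differences on opposite sides of 0 in the lines. Representative probes of IL6ST, LIF, LIFR, SOCS3 and JAK1 had opposite signs too, with smaller gaps, the largest being 0.59 for LIFR. The gaps of IL6R (1.51) and IL11 (-2.39), each with 1 sign, were farther from 0. The STAT3 gap was not tested, since each group has 1 array. The second STAT3 probe gave the same signs with a smaller gap, 0.41.

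The OSMR spot A_23_P156289 on the A549 miR-891b array had a local background of 158, a measurement that the comparisons of processed signal do not use, against 15 in the A549 control array. The signal of this spot is given in the report beside that value.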

How the results depend on the processing

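No paired analysis was possible because each group has 1 array and the labels carry no replicate numbers, and no array could be left out for the same reason. The IL6R difference was above 0 in both lines under each of the 10 settings that give it a value, and the IL11 difference in A549 was below 0 in each. The size of IL6R depended on the background correction. Normexp with an offset of 50 and quantile normalization gave 0.35 in HCT116 and 0.93 in A549, so 0 genes of the set were higher in either line, and normexp with an offset of 1, added after seeing the data, gave 1.09 and 2.38. The first left 27 higher and 13 lower genes of all in HCT116 and 344 and 418 in A549, and 1 higher and 2 lower list genes in A549. The second left 130 and 77 in HCT116, 757 lower in A549 and 3 higher list genes in A549. Quantile normalization alone put 1 list gene lower in HCT116, and the mean over probes 1 higher.

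Without the filter on dim probes all genes gave 2788 higher and 1434 lower in HCT116 and 2933 and 3080 in A549, and the lists 2 and 3 in HCT116 and 10 lower in A549. Without probes in stray areas 139 genes were higher in HCT116, and the share of called genes that were higher went from 57.9% to 49.3%. At 1.5-fold the counts were 747 and 1080 in HCT116 and 2369 and 3259 in A549, 1 gene of the set was lower in HCT116 and 2 in A549, and the lists gave 9 lower in HCT116 and 17 higher and 14 lower in A549. At 3-fold they were 68 and 13, and 224 and 326, with 2 and 1 list genes in A549. The causes were not tested beyond what the thresholds and filters do by construction.

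The share of called genes that were higher in A549 was 41.9%, and 55.0% with the 75th percentile taken over probes well above background, which also moved the median of all genes there by 0.10. In HCT116 that share was 67.4%, and 67.5% under normexp with an offset of 50. Some differences near 0 changed sign: IL6ST in 2 settings in HCT116 and 4 in A549, and LIF in 3 in HCT116. OSMR in A549 was 0.73 as a mean over its probes. The A549 medians of 6 of the 8 lists took both signs, that of the NF-kB list from -0.24 to 0.60. Signals close to background limit the precision for IL6R and IL6.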
